A study of Caenorhabditis elegans with 8 samples.

Results

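The germline transcriptome of C. elegans worms that lack most of the AlkB domain of NMAD-1 was compared with that of wild-type (WT) worms at 25°C. All genes with a mean normalized expected count of at least 10 over the 4 libraries were taken, which gave 11955 of the 46739 gene IDs listed. The groups were 2 libraries of nmad-1(ok3133) worms, a deletion allele on chromosome III, and 2 libraries of N2 Bristol worms as WT, out of 8 libraries in the whole study. Both genotypes were fed a bacterial strain deficient in dam and dcm methylation, were labelled as L4, and each library came from the mRNA of the germlines of 100 worms. A germline cut out of a worm can carry other tissue with it, and the methods describe the mutant germlines as smaller than those of WT. Since the column names give no replicate number, A and B are only names that tell apart 2 libraries of 1 genotype. Genes near the minimum of 10 showed what the filter kept and removed: wee-1.1 was just inside, at 10.3 and 7.75 in nmad-1 and 9.90 and 12.1 in WT, and C06G3.3 was just outside, at 9.15 and 28.7 in nmad-1 and 0.99 and 1.1 in WT.

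NMAD-1 is a member of the AlkB family, enzymes that take alkyl groups off nucleic acids. The hermaphrodite gonad of C. elegans makes sperm first, late in larval life, and oocytes afterwards, and it is wrapped in somatic sheath cells. Developing oocytes are filled with maternal mRNA and with yolk, whose vitellogenin proteins are made in the intestine and taken up through a receptor on the oocyte. Growing germ cells make large amounts of ribosomes, and the X chromosome is largely silent in most of the germline.

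Each library held an estimated 19673632 to 33429408 reads, and ribosomal RNA genes took 22.7% to 28.5% of the values. The libraries of a group differed by more than sampling noise, and a chi-square of their reads, divided by its degrees of freedom, was 54.1 in nmad-1 and 41.5 in WT. The targeted gene checked the labels: nmad-1 was at 170.4 and 171 in nmad-1 and 764 and 753 in WT (log2 fold change -2.15 ± 0.14 (SE), adjusted p = 0.00015). The values are expected counts from RSEM after division by each library's size factor, and their totals were 22505140 and 21937580 in nmad-1 and 33108053 and 32929742 in WT. This scaling matters for mild changes. The median log2 fold change of all genes tested was -0.09 as deposited, 0.30 when each library was scaled by its upper quartile, and 0.48 when all libraries were scaled to the same total. List counts are therefore given as deposited and with the same total. The same total raised the median log2 fold change by 0.57, and single genes by about as much. A decrease well beyond that could not turn under this scaling.

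Genes differed on a broad front. Among the 11955 genes tested with limma on log2(value + 1), 3917 (32.8%) were higher in nmad-1 and 4545 (38.0%) were lower at an adjusted p-value (Benjamini-Hochberg) under 0.05. At least 2-fold changes were lopsided, with 3504 genes (29.3%) higher and 600 (5.02%) lower. Groups did not overlap in 8461 of the 8462 called genes, so a lack of overlap adds little to a call. When every library was brought to an equal total, called the same total below, 6029 genes (50.4%) rose and 770 (6.44%) fell, so the count of lower genes was far smaller under that scaling. The shares of all genes higher and lower, as deposited and with the same total, are the background for every list count below. They take no account of the level of expression, which is described next. Without nmad-1 library B, 2399 genes were higher and 3375 lower. Of the genes tested, 1870 had a WT mean under 10 and passed the filter through their nmad-1 values, against 82 with an nmad-1 mean under 10. Nothing in the labels ties the libraries to separate cultures, although the methods call them biological replicates, so the p-values measure the spread between these libraries.

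The direction of change differed with the level of expression. Of 2428 genes with a mean of 10 to 30, 1340 were higher and 41 lower, with a median log2 fold change of 1.59. Of those 2428 genes, 1479 had a WT mean under 10 and 81 an nmad-1 mean under 10, so the filter itself admitted more genes that are high in nmad-1, and this range is a description. Of 1759 genes with a mean of 3000 and over, 26 were higher and 1517 lower, with a median of -0.56, which became 0.01 with the same total. Shares higher were 55.2% at 10 to 30, 62.7% at 30 to 100, 48.3% at 100 to 300 and 20.8% at 300 to 1000. They were 4.77% at 1000 to 3000 and 1.48% at 3000 and over. Shares lower, in the same order, were 1.69%, 5.62%, 18.0%, 48.9%, 73.9% and 86.2%. How far the share of a list below follows from its level was not tested. On the X chromosome 734 of 1541 genes were higher and 217 lower, with a median of 0.75. Chromosome V had 887 of 2093 higher and 663 lower, with a median of 0.44, while chromosomes I and III both had a median of -0.31. With the same total 1032 genes of the X were higher and 39 lower, and the medians were 1.302 on the X, 0.99 on V and 0.26 on both I and III. Genes of the X took 3.60% and 5.07% of the values outside ribosomal RNA in nmad-1 and 2.23% and 2.39% in WT, and without the vitellogenin genes of the X 3.21% and 3.86% in nmad-1 and 2.08% and 2.12% in WT. The chromosomes also differed in level, and the tested genes of the X had a median value of 106.0 and those of chromosome I one of 748. At a mean of 30 to 100 the medians of the X and the autosomes were 1.39 and 1.38, and at 300 to 1000 they were -0.06 and -0.38. These are descriptions, with no test of one chromosome against another.

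**Figure D1:**
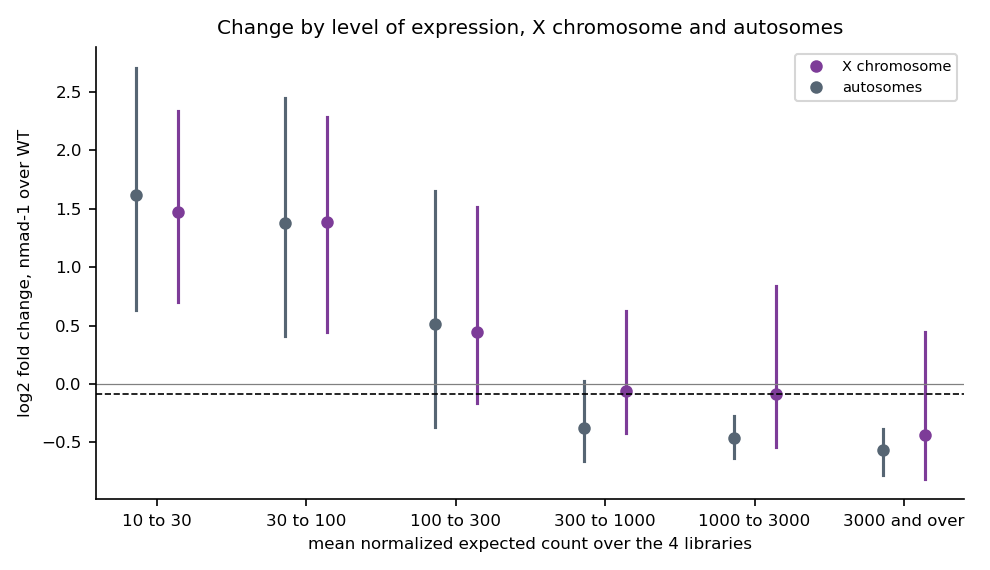
Median log2 fold change of nmad-1 over WT at 25°C (y axis, of log2(value + 1)) by range of the mean normalized expected count over the 4 libraries (x axis), for genes of the X chromosome and of the autosomes. Dots are medians, vertical lines run from the lower to the upper quartile over genes, and the dashed line is the median of all genes tested, -0.09; the medians fall from 1.62 to -0.56 on the autosomes and from 1.47 to -0.44 on the X.

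The markers of the cell types placed the samples. Germline markers were high in all 4 libraries: gld-1, which encodes a translational repressor of germ cells, was at 19730 and 20143 in nmad-1 and 39849 and 39336 in WT, and glh-1, which encodes a germline helicase, was at 7086 and 7648 in nmad-1 and 15150 and 15907 in WT. The oocyte markers cbd-1, rme-2 and oma-1 summed to 109010 and 110679 in nmad-1 and 217374 and 238228 in WT, and vitellogenins and col-19, an adult cuticle collagen, were present in every library although the label is L4. Markers of other tissues were present too. None of the 32 markers was at 0 in any library, and the 22 somatic markers together came to 93955 and 295255 in nmad-1 and 40254 and 70126 in WT. Of these 22, 14 were higher, 2 lower and 1 under the filter. The intestine markers rose most in library B: vit-2, a yolk protein gene, was at 46197 and 164730 in nmad-1 and 15294 and 28470 in WT (log2 fold change 2.06 ± 0.52 (SE), adjusted p = 0.0075), and elt-2, the GATA factor of the intestine, was at 52.6 and 93.0 in nmad-1 and 6.93 and 5.48 in WT. vit-2 lost its call when nmad-1 library B was left out (1.15 on the log2 scale, adjusted p = 0.11). Markers of the sheath and spermatheca were mixed. fkh-6, a forkhead gene of the somatic gonad, was at 41.2 and 24.8 in nmad-1 and 14.9 and 13.2 in WT (log2 fold change 1.14 ± 0.46 (SE), adjusted p = 0.052), and it passed with the same total (1.68, adjusted p = 0.015). lim-7, a sheath LIM homeobox gene, was at 105 and 86.0 in nmad-1 and 92.1 and 79.0 in WT (log2 fold change 0.16 ± 0.26 (SE), adjusted p = 0.6), and with the same total it was higher (0.72, adjusted p = 0.044). inx-8, a gap junction gene of the sheath, was at 1575 and 1589 in nmad-1 and 2022 and 2246 in WT, lower as deposited (-0.43) and at 0.14 with the same total, without a call. More cells of a type in the sample and more RNA per cell cannot be told apart in such bulk samples, and the part of other tissues in the results below was not tested.

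**Figure D2:**
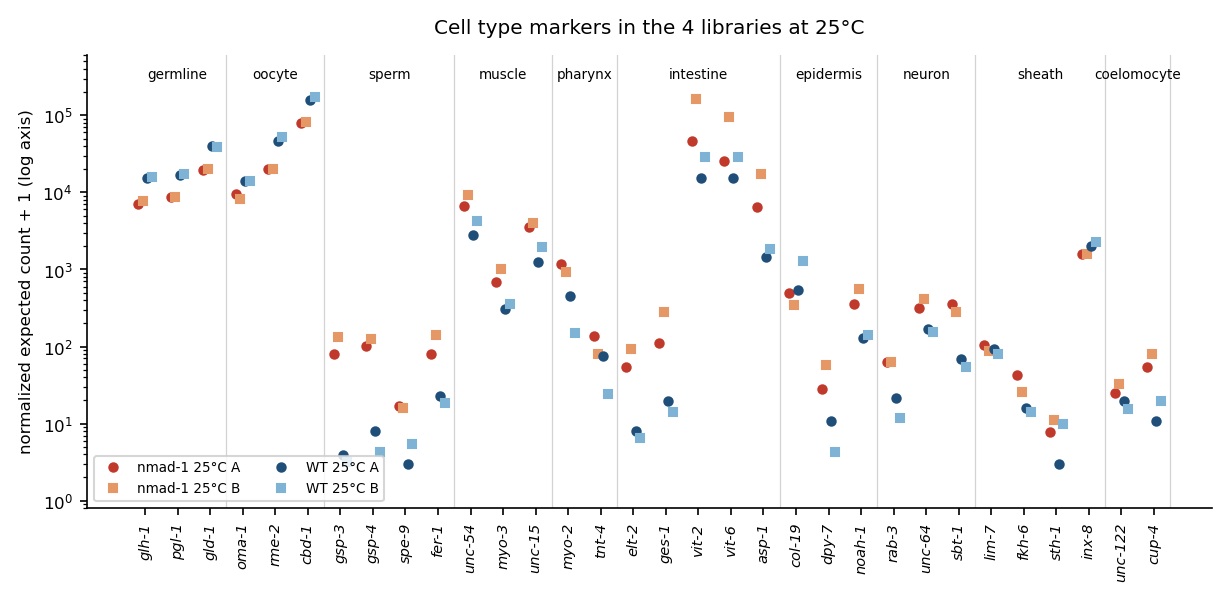
Normalized expected count plus 1 (log axis) of the markers of each cell type in the 4 libraries at 25°C, circles for library A and squares for library B. Germline and oocyte markers sit lower in nmad-1 than in WT as deposited, the sperm, muscle and neuron markers that were tested sit higher, and intestine markers spread widely between nmad-1 libraries A and B (vit-2 at 46197 and 164730).

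**Figure D3:**
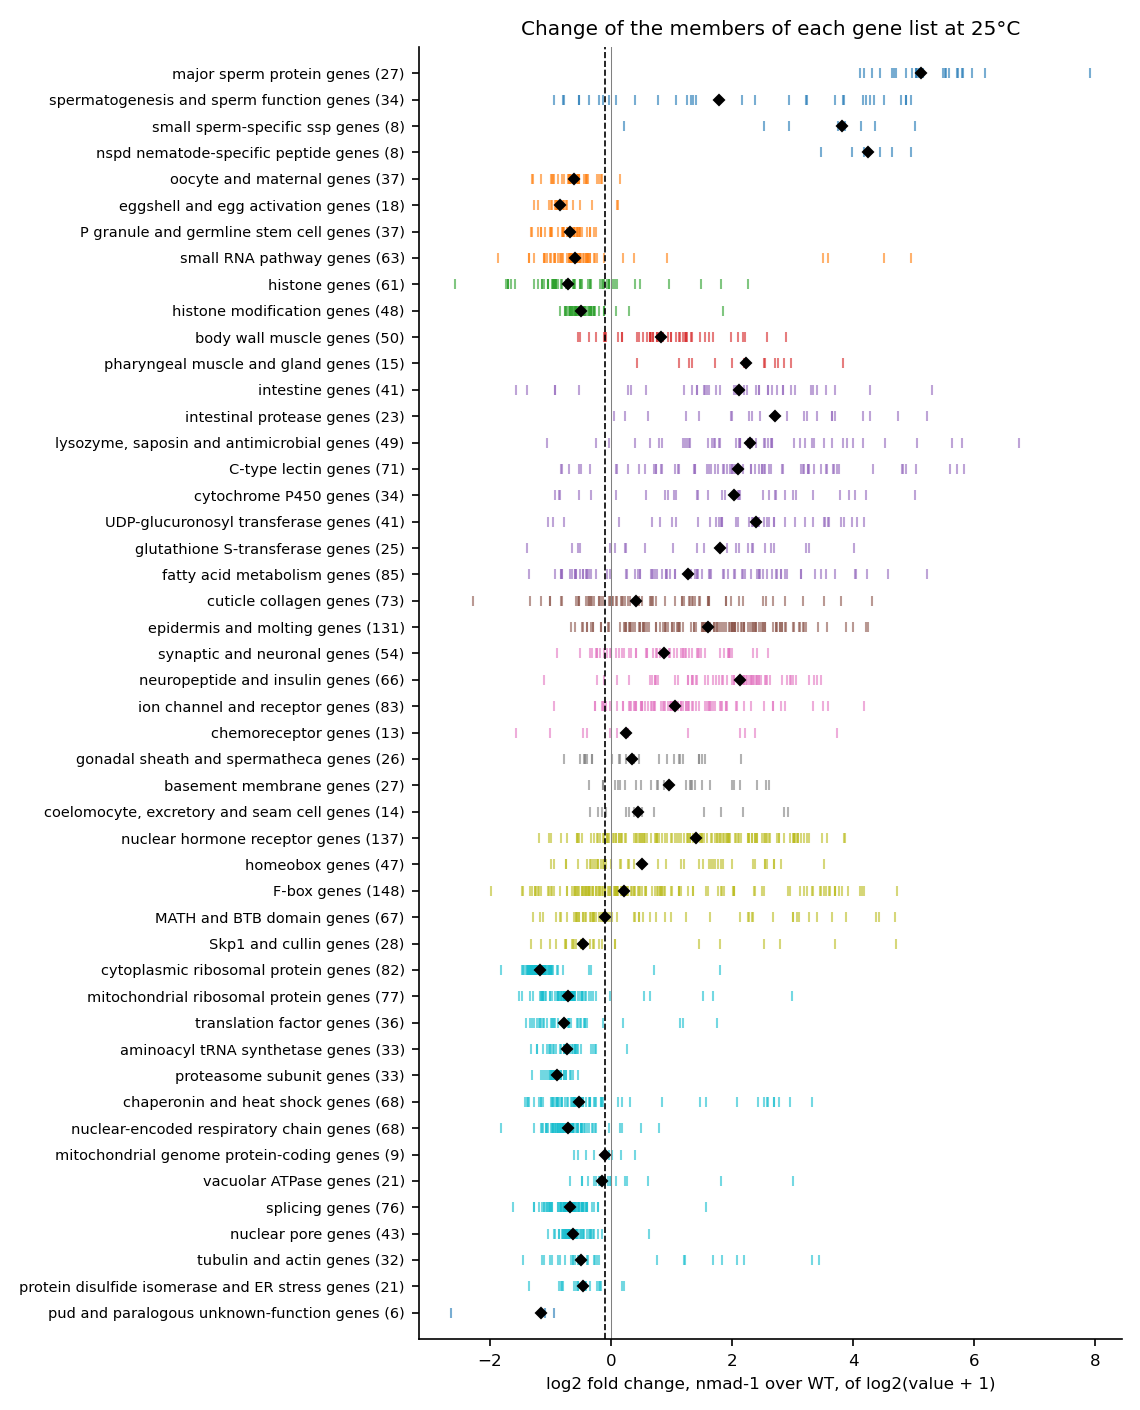
Log2 fold change of nmad-1 over WT at 25°C (x axis) of every member tested of each gene list, 1 tick per gene, with the list's median as a black diamond and the number tested in parentheses. The dashed line is the median of all genes tested (-0.09); the major sperm protein, nspd and ssp genes lie furthest to the right (medians 5.12, 4.25 and 3.81), the lists of intestine, muscle, epidermis and neuron genes lie to the right of it, and cytoplasmic ribosomal protein genes lie to the left (median -1.16).

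Sperm genes showed the steepest change. Major sperm proteins form the cytoskeleton of the crawling sperm and signal to oocytes. Their 35 genes summed to 3437 and 5262 in nmad-1 and 103 and 89.9 in WT, a ratio of 45.1 as deposited and 67.2 with the same total. All 27 genes tested were higher, beside 32.8% of all genes, and 27 with the same total, but all 27 had a WT mean under 10 and had passed the filter through nmad-1. Single msp genes are nearly identical in sequence, so the split of reads among them is uncertain while their sum is less so. msp-19 was at 205 and 280.2 in nmad-1 and 0 and 0 in WT, which is at least 77.5-fold higher when WT is taken at 3 reads per library. msp-77 was at 181 and 285 in nmad-1 and 4.95 and 1.23 in WT.

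Other genes of sperm moved with them. gsp-3 and gsp-4 encode phosphatases of sperm, and gsp-3 was at 80.1 and 133 in nmad-1 and 2.97 and 2.19 in WT (log2 fold change 4.87 ± 0.48 (SE), adjusted p = 0.00022). alg-3, an Argonaute of spermatogenesis, was at 70.9 and 143 in nmad-1 and 0.99 and 4.39 in WT (log2 fold change 4.96 ± 0.63 (SE), adjusted p = 0.00042). The 12 nspd genes, small nematode-specific peptides, summed to 434 and 691 in nmad-1 and 14.9 and 26.3 in WT, and nspd-2 was at 85.8 and 141 in nmad-1 and 1.98 and 3.29 in WT. All 8 nspd genes tested were higher under both scalings, and all 8 had a WT mean under 10. The 12 small ssp genes of sperm summed to 442 and 674 in nmad-1 and 67.3 and 58.1 in WT, with 7 of 8 tested higher, 7 with the same total and 4 without nmad-1 library B. Of those tested, 7 had a WT mean under 10 and had passed the filter through nmad-1. Of the ssp genes, ssp-9 and ssp-11, which the annotation gives a single current symbol, lost their calls without either nmad-1 library. Of 34 spermatogenesis genes tested out of 50, 22 were higher and 6 lower, and with the same total 27 were higher and 1 lower. Of those tested, 14 had a WT mean under 10, and the whole list summed to 30888 and 30712 in nmad-1 and 32545 and 33806 in WT, so its sum did not rise as deposited. The 4 sperm markers, all in this list, summed to 276 and 414 in nmad-1 and 33.7 and 27.4 in WT. Nearly all of the list's sum thus came from other members, and it is not a measure of sperm-specific genes. The lower ones as deposited, named after their values were seen, were icp-1, spe-5, spe-39, spe-44, wee-1.3 and zipt-7.1, and not all of these act only in sperm. spe-44, which encodes a transcription factor of spermatogenesis, was at 414 and 439 in nmad-1 and 801 and 826 in WT (log2 fold change -0.93 ± 0.12 (SE), adjusted p = 0.0005), and its log2 fold change with the same total was -0.36. In contrast, fog-3, which directs germ cells to the sperm fate and was also named after its values were seen, was at 434 and 429 in nmad-1 and 29.7 and 28.5 in WT (log2 fold change 3.84 ± 0.22 (SE), adjusted p = 0.00015). Even in nmad-1 the sperm genes were at low levels beside the oocyte genes: no msp gene named passed 300 in a library, while cbd-1 was at 79291 and 82467 in nmad-1 and 156650 and 172180 in WT.

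Genes of oocytes and eggs were lower as deposited. Of 37 oocyte and maternal genes, 32 were lower and 0 higher, beside 38.0% and 32.8% of all genes, and with the same total 8 were lower and 5 higher. The list's median value was 11190, and its 86.5% lower was near the 86.2% of all genes with a mean of 3000 and over. With the same total 359 of those 1759 genes were lower. rme-2 encodes the yolk receptor of the oocyte and was at 20050 and 20111 in nmad-1 and 46811 and 51787 in WT (log2 fold change -1.29 ± 0.10 (SE), adjusted p = 0.00018). cey-2, which encodes a Y-box RNA-binding protein, was at 23221 and 23065 in nmad-1 and 52307 and 60505 in WT (log2 fold change -1.28 ± 0.11 (SE), adjusted p = 0.00021). Both stayed lower with the same total, at -0.72 and -0.71. Of 18 eggshell and egg activation genes tested, 16 were lower as deposited, 88.9% beside 86.2% of genes with a mean of 3000 and over. With the same total 7 were lower and 2 higher. None was higher as deposited, and 2 were without WT library B. cpg-3, a chondroitin proteoglycan gene of the eggshell, was at 6874 and 6432 in nmad-1 and 14783 and 17359 in WT, and egg-5, needed for egg activation, was at 5312 and 5178 in nmad-1 and 11509 and 12562 in WT. cbd-1, which encodes a protein of the vitelline layer, was lower too, at the values given above (log2 fold change -1.02 ± 0.13 (SE), adjusted p = 0.00045). Without nmad-1 library A or B the adjusted p of cbd-1 was 0.083 or 0.093. These 5 genes were picked among called genes without overlap, so their lack of overlap is no further support.

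P granules are the RNA-protein bodies of germ cells. Of 37 P granule and germline stem cell genes, 35 were lower as deposited and 11 with the same total, and none was higher with either. The list summed to 280693 and 274189 in nmad-1 and 492031 and 517995 in WT, a ratio of 0.549 as deposited and 0.816 with the same total. car-1, an RNA-binding protein gene, was at 24003 and 24894 in nmad-1 and 58047 and 63982 in WT (log2 fold change -1.32 ± 0.11 (SE), adjusted p = 0.00018), and pgl-3, a P granule scaffold gene, was at 4022 and 4238 in nmad-1 and 9750.4 and 10480 in WT (log2 fold change -1.29 ± 0.09 (SE), adjusted p = 0.00015). meg-4, another P granule gene, was at 826 and 908 in nmad-1 and 1928 and 2053 in WT. These genes were named by a rule that required their groups not to overlap.

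Small RNA pathway genes act through Argonaute proteins that carry guide RNAs. Of 63 tested, 52 were lower and 6 higher as deposited, and 16 lower and 10 higher with the same total. prg-2, a homolog of the Piwi gene prg-1 that the annotation lists as a pseudogene, was at 3774 and 3391 in nmad-1 and 14160 and 11822 in WT (log2 fold change -1.85 ± 0.11 (SE), adjusted p = 0.00015). csr-1, an Argonaute of the germline, was at 6015 and 6630.0 in nmad-1 and 16384 and 15906 in WT (log2 fold change -1.35 ± 0.09 (SE), adjusted p = 0.00015), and simr-1 was at 2018 and 1929 in nmad-1 and 5059 and 4941 in WT. These 3 stayed lower with the same total, between -1.28 and -0.77. On the other side, alg-3 (above) and sid-2 were among the 6 higher members. sid-2 encodes an intestinal protein that takes up double-stranded RNA and was at 60.6 and 202 in nmad-1 and 13.9 and 5.48 in WT (log2 fold change 3.51 ± 0.63 (SE), adjusted p = 0.0017).

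Histone genes were lower more often than higher, with exceptions. Of 61 tested out of 83, 34 were lower and 4 higher, and with the same total 15 were lower and 8 higher. Their sum was 80377 and 84126 in nmad-1 and 149036 and 150539 in WT. his-11, a core histone gene, was at 2054 and 2402 in nmad-1 and 8449.5 and 6484 in WT (log2 fold change -1.74 ± 0.14 (SE), adjusted p = 0.00018). his-10, his-14 and his-26 were listed with identical values, 38.9 and 62.3 in nmad-1 and 140.0 and 187 in WT, so their reads cannot be told apart. The higher members as deposited were his-71 and the linker histone genes hil-1, hil-7 and his-24, the last named after its values were seen. his-71, an H3 variant, was at 133 and 165 in nmad-1 and 45.6 and 59.2 in WT (log2 fold change 1.49 ± 0.27 (SE), adjusted p = 0.0019), and hil-1 was at 99.5 and 214 in nmad-1 and 44.6 and 37.3 in WT. hil-7 was at 59.5 and 120.2 in nmad-1 and 19.8 and 14.3 in WT. Replication-dependent histone mRNAs lack a poly(A) tail in animals, and the mRNA was purified on poly(T) beads, so these levels are those of captured transcripts. Of 48 histone modification genes tested, 41 were lower and 1 higher as deposited, 27 were lower without nmad-1 library B, and with the same total 0 were lower and 14 higher, where 6.44% and 50.4% of all genes were. The list's median value was 3309, and its 85.4% lower was near the 86.2% of all genes with a mean of 3000 and over. jmjd-3.1, an H3K27 demethylase gene, was the higher one as deposited, at 210.5 and 236 in nmad-1 and 64.4 and 57.0 in WT (log2 fold change 1.86 ± 0.23 (SE), adjusted p = 0.00038).

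Muscle genes were higher. Of 50 body wall muscle genes, 36 were higher and 3 lower as deposited, and 45 higher and 0 lower with the same total. Without nmad-1 library B, 23 were higher and 1 lower. The list's median was 0.92 above that of all genes, and the values of all members summed to 70434 and 77695 in nmad-1 and 59273 and 67746 in WT. unc-54, the major myosin heavy chain gene of the body wall, was at 6626 and 9234 in nmad-1 and 2765 and 4239 in WT (log2 fold change 1.19 ± 0.21 (SE), adjusted p = 0.0016). myo-3, another myosin heavy chain gene, was at 693 and 1001 in nmad-1 and 310.0 and 353 in WT, and unc-15, which encodes paramyosin, was at 3523 and 3955 in nmad-1 and 1265 and 1954 in WT. The values of all 3 were higher in each nmad-1 library than in each WT library, though unc-54 and unc-15 lost their calls without nmad-1 library B (adjusted p = 0.071 and 0.050). Genes at lower levels rose further. pat-9, a zinc finger gene of muscle, was at 93.8 and 96.9 in nmad-1 and 13.9 and 16.5 in WT, and tnt-3, a troponin T gene, at 206 and 281 in nmad-1 and 67.3 and 40.6 in WT. cca-1, a calcium channel gene, was at 108 and 141 in nmad-1 and 37.6 and 17.5 in WT, and its adjusted p was 0.063 without nmad-1 library B.

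The pharynx, the feeding organ, has muscles and glands of its own. Of 32 pharyngeal genes 15 were tested and 13 were higher, with 15 higher with the same total. They summed to 5294 and 3944 in nmad-1 and 1860.0 and 886 in WT, and without nmad-1 library A or B 5 or 4 were called. pha-4, the FoxA gene of the foregut, was at 144 and 192 in nmad-1 and 36.6 and 20.8 in WT (log2 fold change 2.55 ± 0.35 (SE), adjusted p = 0.00057). phat-7, a gene of the pharyngeal gland, was at 1043 and 660.0 in nmad-1 and 209 and 52.7 in WT, and myo-2, the pharyngeal myosin heavy chain gene, was at 1175 and 915 in nmad-1 and 448 and 148 in WT (log2 fold change 2.01 ± 0.42 (SE), adjusted p = 0.0034). WT library A was well above WT library B in these genes, which was the opposite of their order for unc-54. phat-7, phat-8 and myo-2 lost their calls without either nmad-1 library.

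Intestine genes were higher, with a wide spread between the nmad-1 libraries. Of 41 tested, 32 were higher and 4 lower, and 34 higher and 2 lower with the same total. Of these 41, 9 had a WT mean under 10. Without nmad-1 library B fewer members were higher, and without either nmad-1 library fewer were lower. The list summed to 102890 and 323708 in nmad-1 and 61207 and 106967 in WT. As deposited, the sum of nmad-1 library A lay within the WT range and that of library B above it. Vitellogenin genes, described below, made up most of the sum in every library, so it says little about the other members. mtl-1, a metallothionein gene, was at 166 and 1025 in nmad-1 and 19.8 and 20.8 in WT (log2 fold change 4.28 ± 0.69 (SE), adjusted p = 0.0011). dod-19, a gene downstream of the FOXO factor DAF-16, was at 1669 and 2214 in nmad-1 and 189 and 113 in WT (log2 fold change 3.71 ± 0.24 (SE), adjusted p = 0.00015), and ges-1, the gut esterase gene, was at 109.8 and 279.8 in nmad-1 and 18.8 and 13.2 in WT. ftn-1, a ferritin gene, was at 29.7 and 439.5 in nmad-1 and 0 and 7.68 in WT, and it lost its call without nmad-1 library B (adjusted p = 0.14). The 5 intestine markers summed to 78377 and 276542 in nmad-1 and 32308 and 59390 in WT, 4 of them were higher and none was at 0, and their part in this list's change was not tested.

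The vitellogenin genes, which encode the yolk proteins, did not move together. vit-2 was higher, at the values given above. vit-6, at 25506 and 94221 in nmad-1 and 15535 and 29046 in WT, and vit-5, at 11141 and 31170 in nmad-1 and 9167 and 16852 in WT, overlapped WT (log2 fold change 1.21 ± 0.53 (SE), adjusted p = 0.068 and log2 fold change 0.58 ± 0.44 (SE), adjusted p = 0.25). vit-3 and vit-4 were lower: vit-3 was at 1751 and 2469 in nmad-1 and 4106 and 9144 in WT (log2 fold change -1.56 ± 0.32 (SE), adjusted p = 0.0032) and vit-4 at 2450.4 and 3031 in nmad-1 and 5199 and 9676 in WT (log2 fold change -1.38 ± 0.25 (SE), adjusted p = 0.0018). vit-1 was at 875 and 1517 in nmad-1 and 1632 and 2910.0 in WT (log2 fold change -0.92 ± 0.30 (SE), adjusted p = 0.024). With the same total vit-6 was higher (1.78, adjusted p = 0.029), and the log2 fold changes of vit-1, vit-3 and vit-4 were -0.35, -0.99 and -0.81. The calls of vit-3 and vit-4 were lost without nmad-1 library A (adjusted p = 0.11 and 0.078) and without library B (0.067 and 0.057), and that of vit-3 with no variance trend (0.058). The vit-3, vit-4 and vit-5 genes are close copies, so their split of reads is uncertain. vit-1, vit-5 and these comparisons within the family were named after their values were seen.

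Digestive enzymes were among the clearest increases. Of 23 protease genes of the asp, cpr and ctsa families tested, 20 were higher and none lower, and with the same total 22 were higher. They summed to 33165 and 77964 in nmad-1 and 10227 and 12253 in WT. cpr-1, a cathepsin B gene, was at 1161 and 3850.3 in nmad-1 and 48.5 and 63.6 in WT (log2 fold change 5.22 ± 0.46 (SE), adjusted p = 0.00021), and cpr-5 was at 272 and 674 in nmad-1 and 13.9 and 16.5 in WT. asp-1, an aspartic protease gene of the gut, was at 6511 and 17213 in nmad-1 and 1453 and 1856 in WT (log2 fold change 2.69 ± 0.37 (SE), adjusted p = 0.00056). In each of these genes nmad-1 library B was the highest, and library A was still above both WT libraries.

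Defence genes of the lysozyme, saposin and antimicrobial families had 41 of 49 tested higher and none lower, as deposited and with the same total. Without nmad-1 library B 26 were higher and 1 lower. Of those tested, 19 had a WT mean under 10. All 111 in the table summed to 17948 and 33717 in nmad-1 and 5512 and 8372 in WT. lys-7, a lysozyme gene, was at 1518 and 3174 in nmad-1 and 67.3 and 27.4 in WT (log2 fold change 5.64 ± 0.44 (SE), adjusted p = 0.00018), and lys-4 was at 196 and 573 in nmad-1 and 10.9 and 7.68 in WT. ilys-2, an invertebrate-type lysozyme gene, was at 73.2 and 320.1 in nmad-1 and 0 and 1.097 in WT. Of 71 C-type lectin genes tested, 50 were higher and 3 lower, and with the same total 55 were higher and 0 lower. Of these 71, 29 had a WT mean under 10 and had passed the filter through nmad-1. Without nmad-1 library B fewer members were higher and fewer lower. The sum of the whole family was 52030 and 66285 in nmad-1 and 56907 and 69596 in WT, and its largest part, clec-87, was at 25146 and 22157 in nmad-1 and 37003 and 46223 in WT (log2 fold change -0.81 ± 0.13 (SE), adjusted p = 0.0012). clec-87, which was named after its values were seen, had a log2 fold change of -0.24 with the same total. clec-17 was at 285 and 591 in nmad-1 and 5.94 and 6.58 in WT (log2 fold change 5.83 ± 0.40 (SE), adjusted p = 0.00015), and clec-65 was at 578 and 1525 in nmad-1 and 64.4 and 75.7 in WT.

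Genes of detoxification families were higher in most members tested. Of 34 cytochrome P450 genes tested out of 80, 26 were higher and 4 lower (27 and 3 with the same total, and 12 higher without nmad-1 library B). Of those tested, 11 had a WT mean under 10 and had passed the filter through nmad-1. All 80 summed to 8696 and 9602 in nmad-1 and 12299 and 11553 in WT. cyp-34A9 was at 75.5 and 315 in nmad-1 and 10.9 and 6.58 in WT (log2 fold change 4.03 ± 0.63 (SE), adjusted p = 0.00097), while cyp-31A2, named after its values were seen, was at 2413 and 2219 in nmad-1 and 4272 and 4039.9 in WT (log2 fold change -0.84 ± 0.09 (SE), adjusted p = 0.0003). Of 41 UDP-glucuronosyl transferase genes, whose products conjugate small molecules, 36 were higher and 3 lower, and 19 had a WT mean under 10. With the same total 36 were higher and 0 lower. As deposited, fewer were higher without any single library, and the fewest without nmad-1 library B. ugt-23 was at 265 and 517 in nmad-1 and 16.8 and 51.5 in WT (log2 fold change 3.60 ± 0.51 (SE), adjusted p = 0.00063). ugt-28, the lower one named, was at 102 and 87.6 in nmad-1 and 194 and 194 in WT (log2 fold change -1.03 ± 0.21 (SE), adjusted p = 0.0032), and its log2 fold change with the same total was -0.46 and did not pass. Of 25 glutathione S-transferase genes, 16 rose and 2 fell as deposited, and 5 of those tested had a WT mean under 10. All 47 in the table summed to 7676 and 9467.5 in nmad-1 and 9283 and 10651 in WT, so the sum did not rise as deposited. With the same total 19 were higher and 0 lower. As deposited fewer were lower without WT library B or either nmad-1 library, and fewer were higher without nmad-1 library B. gst-20 was at 351 and 425 in nmad-1 and 66.4 and 55.9 in WT and gst-39 at 102 and 121.7 in nmad-1 and 7.92 and 4.39 in WT.

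Fatty acid metabolism genes were largely higher. Of 85 tested, 53 were higher and 18 lower, with 62 higher and 1 lower with the same total, and 28 higher without nmad-1 library B. Of those tested, 13 had a WT mean under 10. The whole list summed to 119660 and 139955 in nmad-1 and 134534 and 146269 in WT. acs-2, an acyl-CoA synthetase gene, was at 167 and 379.8 in nmad-1 and 15.8 and 9.87 in WT (log2 fold change 4.22 ± 0.44 (SE), adjusted p = 0.00025), and acox-1.5, an acyl-CoA oxidase gene, was at 176 and 212 in nmad-1 and 17.8 and 10.97 in WT. lipl-2, a lipase gene, was at 288 and 844 in nmad-1 and 35.7 and 53.7 in WT. lbp-9, a lipid-binding protein gene, was far more abundant and lower, at 5483 and 5932 in nmad-1 and 12615 and 16811 in WT (log2 fold change -1.35 ± 0.14 (SE), adjusted p = 0.00023), and it stayed lower with the same total, at -0.78.

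Cuticle collagen genes, which build the exoskeleton, had a share of higher genes near the background and few lower ones. Of 73 tested out of 179, 23 were higher and 6 lower as deposited, beside 32.8% and 38.0% of all genes. With the same total 35 were higher and 0 lower, beside 50.4% and 6.44%. Single libraries decided these counts: 15 were higher and 14 lower without WT library A, 9 higher without nmad-1 library A, 9 higher and 2 lower without nmad-1 library B, and 1 lower without WT library B. They summed to 34196 and 29993 in nmad-1 and 22597 and 41218 in WT, so both nmad-1 sums lay between those of WT. Of the 73 tested, 10 had a WT mean under 10. The tested members had a median value of 62.58. Their 31.5% higher was under the 62.7% of all genes with a mean of 30 to 100. sqt-3 was at 209 and 504 in nmad-1 and 31.7 and 59.2 in WT (log2 fold change 2.88 ± 0.44 (SE), adjusted p = 0.00087). col-19 was at 494 and 343 in nmad-1 and 534 and 1278 in WT (log2 fold change -1.004 ± 0.36 (SE), adjusted p = 0.034), its groups did not overlap, and it did not pass without WT library B (log2 fold change -0.37, adjusted p = 0.25), without either nmad-1 library (0.14 and 0.34) or with the same total.

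Other epidermal genes stood further from the background. Of 131 epidermis and molting genes tested out of 246, 90 were higher and 4 lower as deposited, and 108 and 0 with the same total. Without nmad-1 library B 53 were higher and 2 lower, and 2 were lower without WT library A. Of those tested, 37 had a WT mean under 10 and had passed the filter through nmad-1. All 246 summed to 57543 and 63976 in nmad-1 and 54293 and 55262 in WT. nas-37 encodes a metalloprotease that opens the old cuticle at molting and was at 149.8 and 216 in nmad-1 and 4.95 and 14.3 in WT (log2 fold change 4.25 ± 0.49 (SE), adjusted p = 0.00033). noah-1, a matrix gene of the epidermis, was at 358 and 559.7 in nmad-1 and 127 and 140.4 in WT (log2 fold change 1.74 ± 0.23 (SE), adjusted p = 0.00051), and ttr-37, a transthyretin-related gene, was at 62.9 and 210.1 in nmad-1 and 7.92 and 12.1 in WT. nas-37 and ttr-37 were named by a rule that required no overlap, and the nmad-1 values of noah-1, a marker, also lay above WT.

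Genes of neurons were higher more often than lower. Of 54 synaptic and neuronal genes tested, 27 were higher and 5 lower as deposited, beside 32.8% and 38.0% of all genes, and 48 and 1 with the same total, beside 50.4% and 6.44%. The list summed to 56221 and 52819 in nmad-1 and 55578 and 57607 in WT, which overlapped as deposited. The calls were fewer without a library: 17 higher without WT library B and 12 without nmad-1 library B, and 2 lower without WT library A, WT library B or nmad-1 library B. egl-3, which encodes the convertase that cuts neuropeptide precursors, was at 1246 and 977 in nmad-1 and 252 and 131 in WT (log2 fold change 2.60 ± 0.28 (SE), adjusted p = 0.00028), and sbt-1, the chaperone gene of that enzyme class, was at 356 and 278 in nmad-1 and 68.3 and 53.7 in WT (log2 fold change 2.36 ± 0.24 (SE), adjusted p = 0.00023). rab-3, a synaptic vesicle gene, was at 62.9 and 61.2 in nmad-1 and 20.8 and 10.97 in WT, and its adjusted p was 0.056 without nmad-1 library B. In both egl-3 and sbt-1 nmad-1 library A was the highest, unlike the intestine genes.

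Neuropeptide and insulin genes had a median 2.21 above that of all genes tested, against 0.97 for the synaptic genes and 1.14 for the ion channel genes. Of 141 genes 66 were tested, 26 of them with a WT mean under 10, and 52 were higher and 1 lower as deposited and 59 and 0 with the same total. Without nmad-1 library A or B, 26 or 29 were higher, and the single lower call was lost without either WT library or nmad-1 library A. All members summed to 5549.8 and 5067 in nmad-1 and 1827 and 1841 in WT, with library A the higher in nmad-1. flp-14, a FMRFamide-like peptide gene, was at 158 and 121.7 in nmad-1 and 27.7 and 9.87 in WT (log2 fold change 2.98 ± 0.47 (SE), adjusted p = 0.001), and flp-24 was at 128 and 96.9 in nmad-1 and 17.8 and 8.77 in WT. flp-1 was at 154 and 178 in nmad-1 and 34.7 and 12.1 in WT, and its adjusted p was 0.052 without nmad-1 library B. Of 83 ion channel and receptor genes tested, 39 were higher and 0 lower as deposited and 55 and 0 with the same total, with 19 higher without WT library B and 12 without nmad-1 library B. Of those tested, 31 had a WT mean under 10, and the list's median value was 22.07. Its 47.0% higher was under the 55.2% of all genes with a mean of 10 to 30. glc-1, a glutamate-gated chloride channel gene, was at 105 and 209 in nmad-1 and 7.92 and 6.58 in WT (log2 fold change 4.18 ± 0.43 (SE), adjusted p = 0.00025). Chemoreceptor genes were nearly all under the filter: 13 of 1628 were tested, 6 of these with a WT mean under 10. Among the 13, 5 were higher and 1 lower under both scalings. Their share of higher genes, 38.5%, was near the 32.8% of all genes as deposited and under the 50.4% with the same total. It was also under the 55.2% of all genes with a mean of 10 to 30, where the list's median value of 23.96 lay. The lower one, sri-40, was at 152 and 103 in nmad-1 and 360.5 and 384 in WT (log2 fold change -1.56 ± 0.22 (SE), adjusted p = 0.00064).

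Genes of the somatic gonad were divided. Of 26 sheath and spermatheca genes tested, 9 were higher and 6 lower as deposited, beside 32.8% and 38.0% of all genes, and with the same total 16 were higher and 0 lower. They summed to 39830 and 42196 in nmad-1 and 55203 and 53470 in WT. ceh-18, a POU homeobox gene of the sheath, was at 99.5 and 94.6 in nmad-1 and 35.7 and 34.0 in WT (log2 fold change 1.45 ± 0.29 (SE), adjusted p = 0.0027). spv-1, which encodes a RhoGAP of the spermatheca, was at 141 and 160.5 in nmad-1 and 47.5 and 53.7 in WT, and nhr-6, a nuclear receptor gene of the spermatheca, was at 116 and 210.1 in nmad-1 and 54.5 and 53.7 in WT. The values of lim-7, given above, overlapped between the groups as deposited.

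Basement membranes line the gonad, the muscles and the gut. Of 27 basement membrane genes, 18 were higher and 1 lower as deposited, and 26 higher and 0 lower with the same total. The lower call was lost without WT library B or nmad-1 library B. They summed to 28312 and 35629 in nmad-1 and 19565 and 22055 in WT. mig-6, which encodes papilin, was at 2157 and 4222 in nmad-1 and 389 and 627 in WT (log2 fold change 2.61 ± 0.31 (SE), adjusted p = 0.00036), him-4, which encodes hemicentin, was at 535 and 1059 in nmad-1 and 146 and 243 in WT (log2 fold change 1.99 ± 0.33 (SE), adjusted p = 0.0013), and fbl-1, which encodes fibulin, was at 117 and 124 in nmad-1 and 19.8 and 24.1 in WT. These genes were picked among called genes whose groups did not overlap. Of 14 genes of coelomocytes, excretory and seam cells tested, 5 were higher and 1 lower as deposited, beside 32.8% and 38.0% of all genes. The share of higher genes was thus near that of all genes, but the list's median value was 81.23. At a mean of 30 to 100, 62.7% of all genes were higher. With the same total 11 were higher and 0 lower, beside 50.4% and 6.44%. As deposited, 3 were higher without nmad-1 library B and 0 lower without library A. exc-5, a gene of the excretory canal, was at 132 and 277 in nmad-1 and 35.7 and 16.5 in WT (log2 fold change 2.92 ± 0.46 (SE), adjusted p = 0.001).

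**Figure D4:**
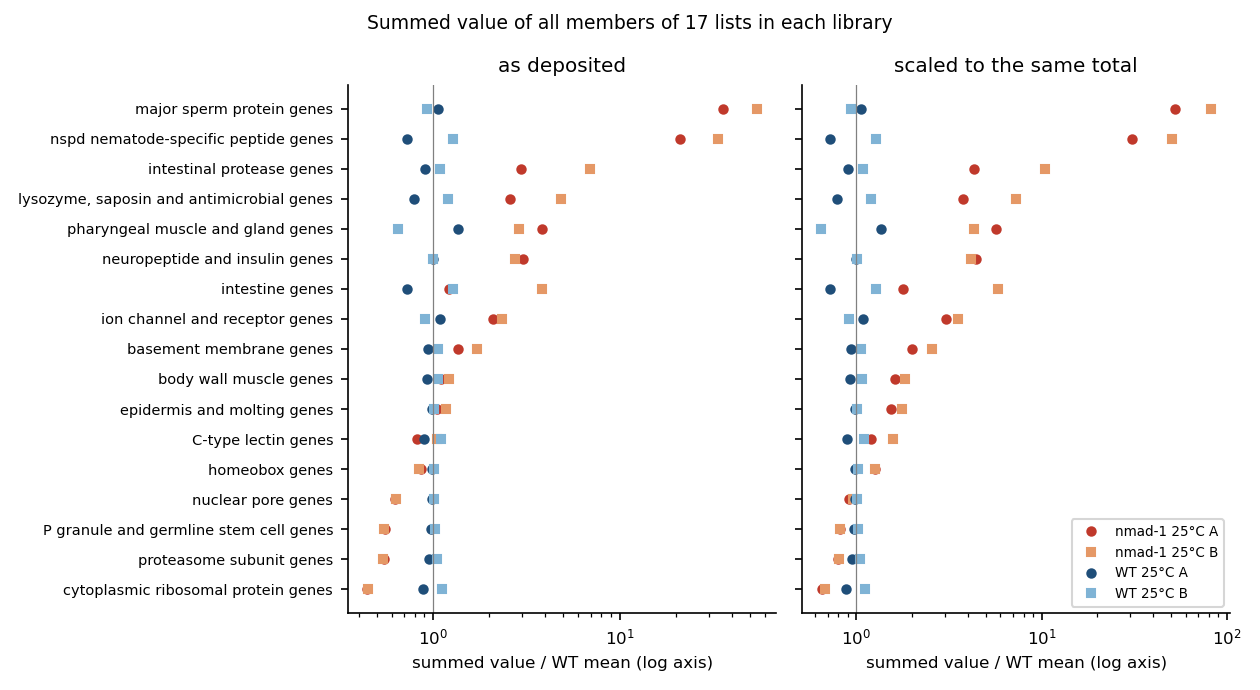
Summed value of all members of selected lists in each of the 4 libraries, divided by the WT mean (log axis), as deposited (left) and with every library scaled to the same total (right). The nmad-1 sums of the major sperm protein genes lie far to the right in both panels (45.1 and 67.2 times WT on average), those of the neuropeptide and protease genes lie to the right, nuclear pore genes come close to WT on the right panel (0.937), and cytoplasmic ribosomal protein genes lie to the left in both (0.446 and 0.663).

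Families of regulators differed from each other. Of 137 nuclear hormone receptor genes tested out of 289, 82 were higher and 11 lower as deposited, and 115 and 1 with the same total. Without nmad-1 library B 44 were higher, and without WT library B 5 were lower. nhr-8, a receptor gene of the intestine, was at 144 and 268 in nmad-1 and 14.9 and 16.5 in WT (log2 fold change 3.57 ± 0.37 (SE), adjusted p = 0.00024), and nhr-57, known to respond to low oxygen, was at 120.1 and 432 in nmad-1 and 21.8 and 30.7 in WT. Of 47 homeobox genes, 22 were higher and 7 lower as deposited, 30 and 1 with the same total, and 11 higher without nmad-1 library B. dve-1 was at 97.2 and 121 in nmad-1 and 15.8 and 19.7 in WT (log2 fold change 2.55 ± 0.34 (SE), adjusted p = 0.00051) and ceh-37 at 81.2 and 129 in nmad-1 and 16.8 and 21.9 in WT. Both receptor and homeobox genes had many members at low levels, with 50 and 11 at a WT mean under 10. Their median values were 42.44 and 62.36, and 59.9% and 46.8% were higher beside 62.7% of all genes with a mean of 30 to 100.

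Ubiquitin ligase adaptors were mixed. F-box and MATH-BTB proteins bring substrates to cullin ligases, and Skp1-related proteins link F-box proteins to them. Of 148 F-box genes tested out of 394, 45 were higher and 26 lower, a share of higher genes near the 32.8% of all genes. Their median value was 28.81, and at a mean of 10 to 30, 55.2% of all genes were higher and 1.69% lower. The list's 30.4% and 17.6% thus differed from the shares at its level. Of those tested, 39 had a WT mean under 10. With the same total 56 were higher and 11 lower, and 18 were higher without nmad-1 library B and 15 lower without WT library A. fbxa-60 was at 105 and 162 in nmad-1 and 9.90 and 12.1 in WT (log2 fold change 3.46 ± 0.38 (SE), adjusted p = 0.00028), and fbxa-192 at 326 and 253 in nmad-1 and 821 and 741 in WT (log2 fold change -1.44 ± 0.16 (SE), adjusted p = 0.0003). With the same total fbxa-192 stayed lower, at -0.87. MATH and BTB genes also had a share of higher members near the 32.8% of all genes, and 16 of the 67 tested had a WT mean under 10. Their median value was 70.88, and their 28.4% higher was under the 62.7% of all genes with a mean of 30 to 100. Of 67 MATH and BTB genes, 19 were higher and 12 lower (26 and 1 with the same total, and 7 lower without WT library A), and math-27 was at 312 and 787 in nmad-1 and 31.5 and 47.3 in WT (log2 fold change 3.65 ± 0.41 (SE), adjusted p = 0.0003). Of 28 Skp1 and cullin genes, 6 were higher and 15 lower (8 and 1 with the same total, and 9 lower without WT library B). skr-5 was at 53.8 and 199 in nmad-1 and 1.98 and 4.39 in WT (log2 fold change 4.71 ± 0.67 (SE), adjusted p = 0.00065), while skr-7 was at 212 and 229 in nmad-1 and 441 and 539 in WT (log2 fold change -1.14 ± 0.17 (SE), adjusted p = 0.00071).

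Ribosomal protein genes were lower under each scaling tried. Of 82 cytoplasmic ribosomal protein genes tested, 79 were lower and 2 higher as deposited, and 75 were lower and 2 higher with the same total, where 6.44% of all genes were lower. They summed to 1335690 and 1348120 in nmad-1 and 2651150 and 3363640 in WT, a ratio of 0.446 as deposited and 0.663 with the same total. rpl-39 was at 1860.0 and 1999.9 in nmad-1 and 5526 and 8226 in WT (log2 fold change -1.81 ± 0.17 (SE), adjusted p = 0.00021), rpl-30 at 7288 and 7407 in nmad-1 and 16684 and 24790 in WT, and rpl-9 at 15483 and 15993 in nmad-1 and 38123 and 48577 in WT (log2 fold change -1.45 ± 0.13 (SE), adjusted p = 0.00021). Values of nmad-1 A and B were close to each other, and WT library B was above WT library A in all 3. The higher members were rpl-25.1 and rpl-11.2. rpl-25.1 kept its call in each alternative tried and was at 1001 and 1456 in nmad-1 and 285 and 415 in WT (log2 fold change 1.81 ± 0.22 (SE), adjusted p = 0.00039). rpl-11.2, which was named after its values were seen, was at 1779 and 2456 in nmad-1 and 1032 and 1565 in WT (log2 fold change 0.72 ± 0.21 (SE), adjusted p = 0.015). Without WT library A or either nmad-1 library 1 member was higher, and the adjusted p of rpl-11.2 reached 0.23 without a library.

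Translation and mitochondrial ribosome genes followed, more mildly. Of 36 translation factor genes, 31 were lower and 3 higher as deposited, and 17 and 4 with the same total. erfa-1, a release factor gene, was at 2804 and 2705 in nmad-1 and 7093 and 7399.9 in WT (log2 fold change -1.40 ± 0.09 (SE), adjusted p = 0.00015), and inf-1, the eIF4A gene, was at 9157 and 9479 in nmad-1 and 22836 and 24340 in WT. The higher members were paralogs: iff-2, an eIF5A gene, was at 884 and 1300.0 in nmad-1 and 285 and 349.9 in WT (log2 fold change 1.76 ± 0.20 (SE), adjusted p = 0.0003), eef-1A.2, an elongation factor 1A gene, at 3518 and 5335 in nmad-1 and 1672 and 2145 in WT, and pab-2, a poly(A)-binding protein gene, at 1423 and 2164 in nmad-1 and 708 and 893 in WT. Of 33 aminoacyl tRNA synthetase genes, 30 were lower and 0 higher as deposited, and 12 and 3 with the same total, and gars-1, for glycine, was at 2402 and 2635 in nmad-1 and 6152 and 6389 in WT (log2 fold change -1.32 ± 0.09 (SE), adjusted p = 0.00015). Of 77 genes matched as mitochondrial ribosomal, 70 were lower and 4 higher as deposited, and 20 and 7 with the same total. mrps-25 was at 318 and 289.9 in nmad-1 and 801 and 933 in WT (log2 fold change -1.51 ± 0.14 (SE), adjusted p = 0.00021). The higher members as deposited, mrp-1, mrp-2, mrp-3 and mrp-5, are multidrug resistance transporter genes that share the prefix and are no ribosomal genes, and mrp-3 was at 89.2 and 259.7 in nmad-1 and 17.8 and 18.6 in WT. mrp-5 was named after its values were seen.

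Proteasome genes were lower without exception as deposited. All 33 were lower, and 22 stayed lower and 0 became higher with the same total. They summed to 124540 and 123391 in nmad-1 and 218244 and 239472 in WT. pas-2 and pbs-5 encode subunits of the core particle, and pas-2 was at 2136 and 2179.8 in nmad-1 and 5008 and 5657 in WT (log2 fold change -1.30 ± 0.10 (SE), adjusted p = 0.00017) and pbs-5 at 2353 and 2482 in nmad-1 and 4858 and 5866 in WT. Chaperone genes were divided. Of 68 tested, 45 were lower and 13 higher as deposited, and 17 and 21 with the same total. The abundant constitutive chaperones were lower: hsp-90 was at 36823 and 43281 in nmad-1 and 97769 and 109990 in WT (log2 fold change -1.38 ± 0.13 (SE), adjusted p = 0.00021), hsp-1, an HSP70 gene, at 39650 and 49996 in nmad-1 and 104260 and 127230 in WT (log2 fold change -1.37 ± 0.16 (SE), adjusted p = 0.00032), and cct-5, a chaperonin subunit gene, at 5434 and 5883 in nmad-1 and 14750 and 15569 in WT. All 3 stayed lower with the same total, between -0.85 and -0.80. Of heat-inducible members, hsp-70 was at 1365 and 3559.6 in nmad-1 and 266 and 388 in WT (log2 fold change 2.77 ± 0.38 (SE), adjusted p = 0.00058), hsp-16.48, a small heat shock gene, at 360.3 and 837 in nmad-1 and 61.4 and 116 in WT, and hsp-17 at 205 and 410.1 in nmad-1 and 24.8 and 31.8 in WT (log2 fold change 3.32 ± 0.36 (SE), adjusted p = 0.00027). Of 21 genes of protein folding in the endoplasmic reticulum, 15 were lower and 0 higher as deposited, and 2 and 6 with the same total. hsp-4, a BiP gene, was at 5423 and 6838 in nmad-1 and 14915 and 16295 in WT and was lower under both scalings (-1.36 and -0.78).

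Mitochondrial genes split by genome. Of 68 nuclear genes of the respiratory chain, 60 were lower and 2 higher as deposited, and 18 and 7 with the same total. The higher ones numbered 1 without WT library A or nmad-1 library B. atp-1, an ATP synthase subunit gene, was at 24250 and 26925 in nmad-1 and 52617 and 61465 in WT (log2 fold change -1.15 ± 0.12 (SE), adjusted p = 0.00025), and ndub-7, a complex I subunit gene, was at 609.7 and 681 in nmad-1 and 1262 and 1595 in WT. A list of 9 protein-coding genes of the mitochondrial genome, matched by name and not complete, had 1 lower and 0 higher as deposited. The lower calls varied with the library left out. Members summed to 88176 and 65740 in nmad-1 and 107448 and 68814 in WT, so the libraries of a group differed more than the groups. Among the 14 genes of any class tested on that genome, 1 was higher and 2 lower as deposited. With the same total 4 were higher and 0 lower. Of 21 vacuolar ATPase genes, 5 were lower and 3 higher as deposited, 3 were lower without either WT library, and with the same total 0 were lower and 17 higher. The larger increases were subunits known from somatic tissues: vha-6, of the intestine, was at 1119 and 2433 in nmad-1 and 191 and 216 in WT (log2 fold change 3.02 ± 0.31 (SE), adjusted p = 0.00023), and vha-5, of the epidermis and excretory canal, was at 353 and 372 in nmad-1 and 104 and 101 in WT (log2 fold change 1.81 ± 0.18 (SE), adjusted p = 0.00023).

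Genes of RNA processing and nuclear transport were lower in most members as deposited and in fewer under other scalings. Of 76 splicing genes, 72 were lower and 1 higher as deposited, 43 were lower with upper quartile scaling, and 18 were lower and 5 higher with the same total. The higher call was lost without WT library B. gut-2, an Sm-like gene, was at 486 and 499 in nmad-1 and 1324 and 1709 in WT (log2 fold change -1.61 ± 0.14 (SE), adjusted p = 0.00021), and snr-5, an Sm gene, was at 873 and 912 in nmad-1 and 2038 and 2277 in WT. Of 43 nuclear pore and transport genes, 40 were lower and 0 higher as deposited, 20 were lower with upper quartile scaling, and 4 were lower and 6 higher with the same total. imb-3, an importin beta gene, was at 12424 and 14022 in nmad-1 and 26137 and 27710 in WT (log2 fold change -1.03 ± 0.10 (SE), adjusted p = 0.00022). Tubulin and actin genes had 21 of 32 lower and 8 higher as deposited, and 5 and 12 with the same total. act-2 was at 18844 and 20406 in nmad-1 and 48815 and 58368 in WT (log2 fold change -1.44 ± 0.12 (SE), adjusted p = 0.00019) and tbb-1 at 10587 and 10723 in nmad-1 and 21538 and 25616 in WT, whereas tbb-6 was at 396 and 466 in nmad-1 and 33.7 and 45.0 in WT (log2 fold change 3.43 ± 0.24 (SE), adjusted p = 0.00015) and act-5, the actin gene of intestinal microvilli, at 1054 and 1891 in nmad-1 and 236 and 403 in WT (log2 fold change 2.19 ± 0.31 (SE), adjusted p = 0.0006).

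**Figure D5:**
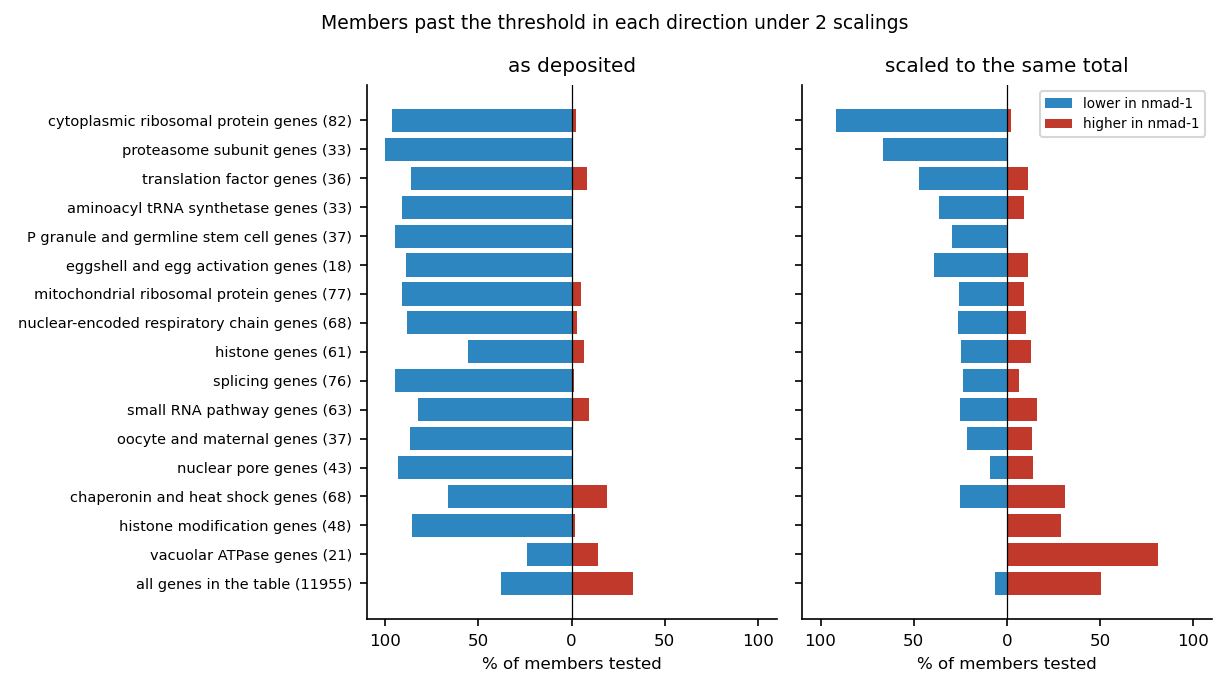
Share of the members tested (x axis, %) that were lower (blue, left) and higher (red, right) in nmad-1 at an adjusted p under 0.05, as deposited and with all libraries scaled to the same total, with the number tested in parentheses. Cytoplasmic ribosomal protein genes keep most lower calls under both scalings (79 and 75 of 82), the proteasome genes keep 22 of 33, and the lower calls of nuclear pore, histone modification and vacuolar ATPase genes shrink to 4, 0 and 0.

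The pud genes, whose function is not known, were lower in 6 of 6 tested as deposited, and in 1 with the same total. pud-3 had the largest decrease among called genes whose mean was 50 or more and whose groups did not overlap, at 25.2 and 34.9 in nmad-1 and 135 and 264 in WT (log2 fold change -2.63 ± 0.37 (SE), adjusted p = 0.00064). pud-2.1 and pud-2.2 were listed with identical values, so their reads cannot be told apart. Fewer were called without a library, 1 without WT library B and 2 without either nmad-1 library.

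The extremes outside the lists were mostly genes with few annotations. By the same rule, the largest increase was cTel55X.1 (X chromosome), at 213 and 291 in nmad-1 and 0 and 0 in WT, which is at least 80.4-fold higher when WT is taken at 3 reads per library. Y59E9AR.1 was at 137 and 216 in nmad-1 and 0.05 and 0 in WT, and Y57G11A.2 at 174 and 287 in nmad-1 and 0 and 2.19 in WT (log2 fold change 6.97 ± 0.63 (SE), adjusted p = 0.00021). nsph-4.2, a nematode-specific peptide gene, was at 127 and 225 in nmad-1 and 0.99 and 0 in WT, cylc-1 at 127 and 232 in nmad-1 and 0 and 1.097 in WT, and ssq-4, a sperm-specific gene, at 239 and 354 in nmad-1 and 4.47 and 1.097 in WT (log2 fold change 6.43 ± 0.52 (SE), adjusted p = 0.00018). T13F2.9 and T08B2.12 completed the 10 largest increases with msp-19 and ilys-2. None of the 10 was above 5 in a WT library. Among the decreases, F23A7.8 was at 249.6 and 139.9 in nmad-1 and 792 and 1077 in WT (log2 fold change -2.30 ± 0.27 (SE), adjusted p = 0.00034), and dnc-3, a dynactin subunit gene, at 207 and 216 in nmad-1 and 917 and 1076 in WT (log2 fold change -2.23 ± 0.14 (SE), adjusted p = 0.00015). Y102A5C.36 was at 145 and 186 in nmad-1 and 678 and 839 in WT, and W04A4.2 at 57.2 and 52.7 in nmad-1 and 256 and 236 in WT. The 10 decreases also held nmad-1, pud-3, F59E12.16, C25A11.1, CD4.10 and rrn-2.1, a ribosomal RNA gene. All of them stayed lower with the same total, as decreases of this size had to.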

How the data were processed

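The deposited table holds signal values that the authors made from paired reads of polyadenylated RNA. They trimmed the reads, aligned them to WS220 with Bowtie2 (2.2.9), estimated counts per gene with RSEM (1.3.0), and divided each library by its median size factor in EBSeq. Values in this table were scaled apart from those of other tables. A second table holds posterior probabilities and fold changes of the authors' own comparison and was not used.

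The column names of the 4 libraries at 25°C give a running number and no genotype. Genotype was inferred from the comparison named in the sample descriptions, taken in the order nmad-1 against WT. The values of the nmad-1 gene, given above, went with this order. Genes with a mean of at least 10 were tested two-sided with limma (3.58.1, under R 4.3.3) after log2(value + 1), the prior variance following the mean, at an adjusted p (Benjamini-Hochberg) under 0.05. Fold changes on this scale understate those of low genes. Reads per library were estimated by dividing its total by its most frequent nonzero value, taken as that of a single read. Whole reads were not recovered, so no count test was run. The test was checked on simulated data. Current symbols, biotypes and chromosomes came from a WBcel235 annotation (43720 of 46739 IDs with a symbol). That is another build, so no coordinates are given. Whether counting used strand is not given in the sources used here, so overlapping and antisense genes are uncertain.

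Named genes were nmad-1, the cell type markers, the 10 largest increases and decreases among called genes with a mean of at least 50 and no overlap, and a few members of each list by size of change, with exceptions named in the text. The members and lists were chosen with earlier results of these data known. Alternatives were other scalings, pseudocounts, filters, no trend, a 2-fold minimum and leaving out each library.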

Additional observations from a re-analysis of the deposited data

How the results depend on the processing

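The count of genes that differed, 8462, was 5774 to 7615 when 1 library was left out, and 4104 with a change of at least 2-fold. The 3917 higher genes became 2399 to 3299 without a library, the lowest without nmad-1 library B, 1217 among genes with a mean of at least 100, and 6029 with the same total. The 4545 lower genes became 1696 when scaled by upper quartiles, 770 by totals, 700 by totals that leave out ribosomal RNA genes, and 600 with a change of at least 2-fold. Other pseudocounts, no filter and no trend moved none of these 3 counts by over 1.5 times. Of 203 named genes tested, 164 kept their direction and their side of the threshold in each alternative that gave them a value, 33 lost a call in some, and 5 gained one in some. inx-8 turned from lower to higher, at 0.1419 with the same total and 0.139 outside ribosomal RNA genes. No paired analysis was possible because the columns carry no replicate numbers. Each genotype had 2 libraries, a fit without a library leaves a lone sample that is assumed to vary like the other genotype, and at 19673632 reads in the shallowest library genes at 0 may be present below its depth. The cause of these shifts was not tested.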

Other observations

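Further families were picked after their values were seen, so their counts are descriptions only. The pals genes, a family that in C. elegans includes regulators of the response to intracellular pathogens, summed to 578 and 1190.4 in nmad-1 and 132 and 138 in WT, with 11 of 16 tested higher. Of those tested, 13 had a WT mean under 10. pals-6 was at 84.7 and 136 in nmad-1 and 0.99 and 0 in WT, and pals-22 and pals-25, which act as a pair of opposed regulators, were at 25.2 and 33.3 in nmad-1 and 21.8 and 25.2 in WT and at 29.7 and 39.5 in nmad-1 and 27.7 and 27.4 in WT, without a call. The carboxylesterase genes named cest had 21 of 23 higher and summed to 2123 and 3779 in nmad-1 and 663 and 691 in WT. Of these 23, 11 had a WT mean under 10. The ttbk genes, related to tau tubulin kinases, had 7 of 8 higher. Of these, 7 had a WT mean under 10, while ttbk-7 was at 276 and 332 in nmad-1 and 283 and 308 in WT. The pgp genes, which encode P-glycoprotein transporters, had 10 of 11 higher, and the nspg nematode-specific peptide genes 9 of 10, with a sum of 3158 and 5756 in nmad-1 and 619 and 864 in WT. Of the pgp and nspg genes tested, 4 and 3 had a WT mean under 10. Galectin genes named lec had 9 of 12 higher, neprilysin-like nep genes 10 of 12, bestrophin genes 9 of 14 and transporter genes named snf 6 of 9, with none lower in any of these. Of the members tested, 1, 4, 6 and 4 had a WT mean under 10, in that order. The rpb genes of RNA polymerase II were lower in 11 of 11 as deposited and in 6 with the same total, and the exosome genes named exos in 8 of 8 and in 2.

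Noncoding classes differed from each other. Genes annotated as lincRNA took 0.0112% and 0.0116% of the values outside ribosomal RNA in nmad-1 and 0.0112% and 0.01% in WT. Of 20 tested, 7 were higher and 5 lower, beside 32.8% and 38.0% of all genes. Those annotated as ncRNA took 0.111% and 0.138% in nmad-1 and 0.0365% and 0.033% in WT. tts-1, a noncoding RNA of long-lived worms, was at 2351 and 5344 in nmad-1 and 134 and 189 in WT (log2 fold change 4.47 ± 0.34 (SE), adjusted p = 0.00018). All 6 small nuclear RNA genes tested were lower as deposited and 4 with the same total. Of these 6, 5 had an nmad-1 mean under 10 and had passed the filter through WT, so the count is a description. The sum over all snRNA genes was 44.1 and 48.9 in nmad-1 and 226 and 254 in WT. Such RNAs carry no poly(A) tail, so the values count what the poly(T) beads carried over. tts-1 and these biotypes were named after their values were seen.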
